A study of Mus musculus with 16 samples.

Results

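mHiPPoE-2 is a transformed neuron line from mouse hippocampus. The comparison set clones of this line that had received the Cas9 nuclease with no guide RNA, the Cas9 controls, against the unedited line (WT). It held 6 of the study's 16 libraries, 2 from each of 2 control clones, called e1 and e4 here, and 2 from WT, called wt1 and wt2. The other 10 libraries came from a METTL3 knockout line, 2 RBM45 knockout clones and 2 rescue clones. They entered the fit to help estimate the spread between replicate libraries, and with it the filter on low counts and the scaling. Where their levels are given, they are named. All lines grew untreated in medium with 10% serum, and total RNA was depleted of ribosomal RNA and sequenced. The labels describe the controls as clonal isolates, so each stands for the descendants of a single cell, and e1 and e4 are 2 such isolates. Since the labels do not say whether replicate libraries came from separate cultures, the spread behind every p-value is that between libraries and may be technical.

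Cas9 without a guide RNA is not directed to any site in the genome, which is why such clones serve as a baseline for knockout clones. Isolating a clone narrows a mixed culture to 1 founder cell, and transformed lines are known to hold cells that differ in chromosome number. NF-kappa B is a family of transcription factors that is held inactive in the cytoplasm by inhibitors such as Nfkbia and that switches on chemokines, cytokines and acute-phase genes. Chemokines such as Cxcl1 and Ccl2 are secreted attractants of neutrophils and monocytes, and cells outside the immune system can make them too.

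Gene counts totalled 12464922 to 18751324 fragments in the 4 control libraries and 8179597 to 10285840 in the 2 WT libraries. Leaving aside 12 very abundant genes, 3786862 to 7167022 fragments remained in the control libraries, 2580543 in wt1 and 3645943 in wt2. The unmapped share was 31.0% to 35.7% in the control libraries, 49.9% in wt1 and 41.6% in wt2. The library wt1 therefore stood apart as the shallowest of the 6 and the one with the highest unmapped share, and for the shared changes named below the text says whether the call held without it. The part that depth and mapping played in the results was not tested. Levels are CPM, counts divided by a TMM-scaled library size in units of 1000000 fragments, and changes are log2 fold changes of a clone over WT.

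The labelled cell type was checked against marker genes. Of 16 neuronal markers in the gene table, Nefl, Nefm, Dcx and Stmn2 had no count in any of the 6 libraries and 10 stayed under 1 CPM in all of them, whereas Map2, Ncam1 and Syn1 were above 30 CPM in every one. The neuronal markers summed to 235 to 377 CPM in the control libraries and 185 to 223 CPM in WT, and the progenitor markers, led by the intermediate filament genes Nes and Vim, to 1114 to 1401 CPM in the control libraries and 937 to 1068 CPM in WT. The neurofilament gene Nefh had 1 and 11 counts in e1 and none in the other 4 libraries. Transcripts of Nefl, Nefm and Dcx, which mark postmitotic neurons, were thus not detected. Of 9 microglial markers, the defining genes Ptprc, C1qa, C1qb and Trem2 had no count in any of the 6 libraries. The 9 summed to 39.2 to 53.02 CPM in the control libraries, 61.9 CPM in wt1 and 45.2 CPM in wt2, most of it from Cx3cr1. Of the astrocyte, oligodendrocyte and endothelial markers, Slc1a3, Gja1, Cnp, Cspg4 and Flt1 were the ones above 10 CPM in at least 1 library, and Aqp4, Gfap, Olig2, Sox10, Cdh5 and Vwf stayed under 1 CPM in all 6. The 21 mesenchymal and matrix markers had the highest sum of these lists. It was 2994 to 4350 CPM in the control libraries, 2919 CPM in wt1 and 2990 CPM in wt2. Fn1, the largest, stood at 1223 to 1732 CPM in the control libraries, 1471 CPM in wt1 and 1220 CPM in wt2. Lum had no count and Dcn stayed under 1 CPM in all 6.

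Rbm45 and Mettl3, which no guide targeted in these clones, served as a check of the labels. Rbm45 (chromosome 2, 76369984 to 76383768, plus strand) had 16.01 and 16.7 CPM in e1 and 12.8 and 13.4 CPM in e4, against 11.1 CPM in wt1 and 14.2 CPM in wt2. Its log2 change was 0.36 in e1 (SE 0.18, adjusted p 0.205) and 0.04 in e4 (SE 0.19, adjusted p 0.924) by edgeR's quasi-likelihood test. Mettl3 (chromosome 14, 52294841 to 52305128, minus strand), which overlaps a gene on the other strand, had 9.595 and 8.88 CPM in e1 and 10.4 and 8.28 CPM in e4, against 11.7 CPM in wt1 and 8.79 CPM in wt2. Its log2 change was -0.13 in e1 (SE 0.17, adjusted p 0.672) and -0.12 in e4 (SE 0.18, adjusted p 0.727) by the same edgeR test. Neither gene passed the test in either clone, and the control and WT libraries overlapped for both.

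By edgeR's quasi-likelihood test at a Benjamini-Hochberg adjusted p under 0.05, clone e1 differed from WT in 1976 of 16223 genes tested (12.2%), 903 higher (5.57%) and 1073 lower (6.61%). Clone e4 differed from WT in 1797 genes (11.1%), 703 higher (4.33%) and 1094 lower (6.74%). A change was called shared when it passed in both clones with the same sign, and 466 genes did so (2.87% of those tested), 161 higher (0.992%) and 305 lower (1.88%) in the clones. Both comparisons used the same 2 WT libraries, so the number of shared genes is a count and not a measure of how alike the clones are. The clones differed from each other in 3175 genes (19.6%), a larger number of calls than either had against WT, and 87 of the 466 shared genes were among them. Both WT libraries had fewer counts than any control library, so these numbers of calls do not measure how far apart the lines are. All 161 shared rises and 297 of the 305 shared falls had the 4 control libraries on one side of both WT libraries. Of all tested genes 20.5% had this pattern, but the call itself favours it, since both clones had to pass against the same 2 WT libraries. The counts rested on single libraries: without e1-2 the calls for e1 numbered 805 and the shared changes 246, without e4-2 the calls for e4 numbered 929 and the shared changes 266, and without wt1 the calls numbered 863 for e1 and 629 for e4. In a fit of the 6 libraries alone 130 changes were shared, 34 higher and 96 lower.

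The fitted shared falls were deeper than the shared rises. Shared falls had a median log2 change of -1.67 in e1 and -1.57 in e4, against medians of 0.985 in e1 and 0.92 in e4 for the shared rises. The 2 classes were not alike in level or position. Over the 6 libraries, 208 of the 305 falls averaged at least 2 CPM, against 154 of the 161 rises. Chromosome 1, taken up below, held 71 of the rises. The part of level and position in the depth was not tested. The clone is the unit that was isolated, and when the counts of each line's libraries were added and the lines were used as units (3 residual degrees of freedom) edgeR called 0 of 18610 genes between the mean of both clones and WT, while 945 had p under 0.05 before adjustment and the lowest adjusted p was 0.060. The calls given here therefore compare these clones with this WT culture.

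Many shared changes needed wt1. Without wt1 the number of shared changes was 143, 39 higher and 104 lower, and without wt2 it was 926, 361 higher and 565 lower. Of the 466 shared changes, 262 (101 higher and 161 lower, 1.61% of genes tested) were lost without wt1 and kept without wt2, and these are the ones that depend on wt1 alone. There were 20 (3 higher and 17 lower, 0.123%) that were lost without wt2 and kept without wt1, 70 (27 higher and 43 lower, 0.431%) that were lost in both cases, and 114 (30 higher and 84 lower, 0.703%) that were kept in both. A fit that leaves out 1 WT library assumes that the remaining one varies like the other lines. Among the 262, wt1 lay farther than wt2 from the mean of the control libraries in all 101 rises and 159 of the 161 falls, as the way they were chosen favours. Over all genes tested, wt1 was the farther library in 10734 of 16223. The 262 became 125 without e1-2 and 127 without e4-2. The 84 kept falls were the deepest class, with medians of -3.05 in e1 and -3.03 in e4, and the 161 that depended on wt1 alone had medians of -1.27 in e1 and -1.29 in e4. The way the classes were chosen favours this order too, since a large change passes more easily with 1 WT library. Over the 6 libraries, 56 of the 84 and 116 of the 161 averaged at least 2 CPM.

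**Figure D1:**
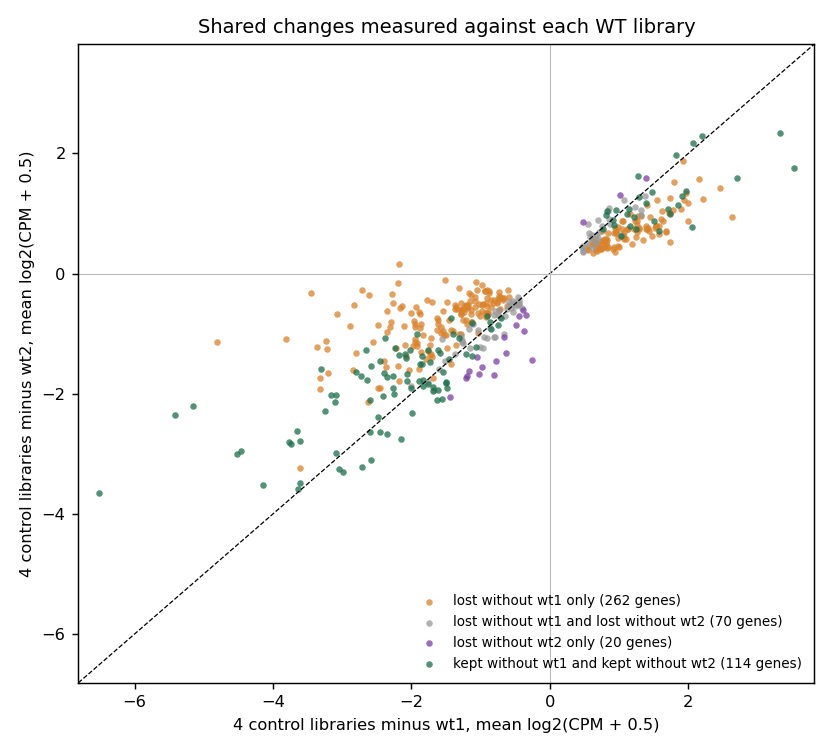
Each point is 1 of the 466 shared changes, placed by the mean of the 4 control libraries minus wt1 (horizontal axis) and minus wt2 (vertical axis), both as mean log2(CPM + 0.5), and coloured by whether the call survived without wt1 and without wt2. The dashed line marks equal distance from both WT libraries, and the 262 genes lost only without wt1 lie almost all on the side where wt1 is farther from the controls.

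The list with the most shared falls was inflammatory. In this list of 20 chemokine, cytokine and NF-kappa B pathway genes, 12 passed the filter on low counts and 7 were lower in both clones (Ccl2, Ccl7, Ccl20, Cxcl1, Csf1, Lif and Nfkbia), none higher, where 1.88% of all tested genes were shared falls. The 12 had median log2 changes of -1.22 in e1 and -2.13 in e4, and of -0.75 in e1 and -1.14 in e4 without wt1, beside medians of -0.00086 in e1 and 0.011 in e4 over all genes tested. The calls for Ccl2, Ccl7, Cxcl1 and Nfkbia were kept without either WT library, those for Ccl20 and Lif depended on wt1 alone, and that for Csf1 was lost in both cases. Genes silent in every line could not pass the filter. A gene near 0 in both clones, such as Cxcl1, could pass it through WT, and could then be called only as a fall. The 12 are therefore not a sample of the whole list, and their count and medians only describe them. The same limit holds for the other lists below.

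Cxcl1 (chromosome 5, 90891241 to 90893115, plus strand), a neutrophil attractant, had 0.187 and 0.261 CPM in e1 and 0.795 and 0.204 CPM in e4, against 75.3 CPM in wt1 and 9.89 CPM in wt2. The log2 change was -7.46 in e1 (SE 0.86, adjusted p 1.73e-05) and -6.51 in e4 (SE 0.84, adjusted p 7.81e-05) by edgeR, and -5.39 in e1 (adjusted p 1.38e-06) and -4.44 in e4 (adjusted p 1.15e-05) without wt1. Both WT libraries were far above all 4 control libraries, although wt1 was 7.61 times wt2. Ccl2 (chromosome 11, 82035571 to 82037453, plus strand), a monocyte attractant that overlaps a gene on the other strand, had 3.43 and 2.35 CPM in e1 and 6.06 and 5.5004 CPM in e4, against 101 CPM in wt1 and 35.1 CPM in wt2. The log2 change was -4.55 in e1 (SE 0.38, adjusted p 4.53e-07) and -3.54 in e4 (SE 0.36, adjusted p 6.46e-06) by edgeR, and -3.61 in e1 and -2.61 in e4 without wt1. Its neighbour on chromosome 11, Ccl7, another monocyte attractant, had 0.623 and 0.679 CPM in e1 and 1.99 and 2.04 CPM in e4, against 22.3 CPM in wt1 and 11.6 CPM in wt2. For both genes e4 lay above e1 and both clones lay below WT, and for Ccl7 the difference of e1 minus e4 was -1.61 (edgeR adjusted p 0.0168). Nfkbia (chromosome 12, 55489410 to 55492647, minus strand), the NF-kappa B inhibitor that is itself an NF-kappa B target, had 11.2 and 12.2 CPM in e1 and 9.14 and 6.93 CPM in e4, against 42.8 CPM in wt1 and 25.3 CPM in wt2, with log2 changes of -1.53 in e1 and -2.08 in e4. Without wt1 the log2 changes were -4.13 in e1 and -2.52 in e4 for Ccl7 and -1.11 in e1 and -1.67 in e4 for Nfkbia. All 4 control libraries were below wt2, the lower of the WT libraries, for both genes.

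C3 (chromosome 17, 57203970 to 57228136, minus strand), the central complement component, had 0 and 0.0522 CPM in e1 and 0 and 0.0679 CPM in e4, against 22.02 CPM in wt1 and 2.197 CPM in wt2. That was 2 counts over the 4 control libraries and 175 over the 2 WT libraries, or 309-fold lower, with a 95% exact counting interval of 84.4 to 2576. The 2 WT libraries were 10.02-fold apart. The call was kept without either, with a fitted log2 change of -8.23 in e1 and -7.84 in e4 with both WT libraries and -5.87 in e1 and -5.48 in e4 without wt1. Mmp3, a secreted protease that degrades matrix and is induced by inflammatory cytokines, had 0.312 and 0.261 CPM in e1 and 1.09 and 0.611 CPM in e4, against 35.99 CPM in wt1 and 4.19 CPM in wt2, a log2 change of -6.03 in e1 (SE 0.84, adjusted p 0.000126) and -4.55 in e4 (SE 0.76, adjusted p 0.000882) by edgeR. Without wt1 the Mmp3 change was smaller, -3.84 in e1 and -2.36 in e4, and the call was kept. All 4 control libraries were below wt2, the lower of the WT libraries. Lcn2 (chromosome 2, 32384633 to 32388252, minus strand), an acute-phase protein that binds bacterial iron carriers, had 0 and 0 CPM in e1 and 0 and 0 CPM in e4, against 13.5 CPM in wt1 and 0.599 CPM in wt2. With 0 counts over the 4 control libraries and 100 over WT, it was at least 118-fold lower against a floor of 3 counts over the 4 libraries. The Lcn2 call depended on wt1 alone, since wt2 held only 0.599 CPM.

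Antigen presentation and interferon genes held shared falls as well. Of 13 antigen presentation genes listed, 10 were tested and 3 were shared falls, none a shared rise, where 1.88% of all tested genes were shared falls and 0.992% shared rises. H2-K1 (chromosome 17, 33996017 to 34000347, minus strand), an MHC class I heavy chain, had 16.9 and 12.1 CPM in e1 and 11.1 and 8.35 CPM in e4, against 63.2 CPM in wt1 and 25.4 CPM in wt2, a log2 change of -1.60 in e1 (SE 0.28, adjusted p 0.00117) and -2.18 in e4 (SE 0.30, adjusted p 0.0001699) by edgeR. The call was kept without either WT library, and without wt1 the log2 change was -0.82 in e1 and -1.40 in e4. H2-D1, another class I heavy chain, had 26.4 and 23.3 CPM in e1 and 27.1 and 18.8 CPM in e4, against 88.5 CPM in wt1 and 38.3 CPM in wt2. Nlrc5, which activates transcription of class I genes, had 3.99 and 4.07 CPM in e1 and 6.16 and 6.59 CPM in e4, against 12.95 CPM in wt1 and 7.99 CPM in wt2. Both of these calls depended on wt1 alone, and without wt1 their log2 changes were -0.62 in e1 and -0.75 in e4 for H2-D1 and -0.98 in e1 and -0.32 in e4 for Nlrc5. In the interferon response list, 2 of 20 tested genes of 36 listed were shared falls, and none was a shared rise. Zc3hav1, an antiviral zinc-finger protein, had 4.11 and 3.39 CPM in e1 and 5.76 and 7.13 CPM in e4, against 17.8 CPM in wt1 and 12.6 CPM in wt2. Cxcl10, an interferon-induced chemokine, had 0.80999 and 0.4701 CPM in e1 and 0 and 0 CPM in e4, against 6.48 CPM in wt1 and 1.298 CPM in wt2. The Zc3hav1 call was kept without either WT library, with log2 changes of -1.75 in e1 and -0.95 in e4 without wt1. The Cxcl10 call depended on wt1 alone. Of the microglial markers, Ptprc, C1qa, C1qb and Trem2 had no count in these libraries. Cx3cr1 stood at 31.9 to 38.5 CPM in the control libraries, 52.5 CPM in wt1 and 38.7 CPM in wt2. Csf1r stood at 3.55 to 4.21 CPM in the control libraries, 6.33 CPM in wt1 and 3.795 CPM in wt2. Tmem119 stood at 2.51 to 11.8 CPM in the control libraries, 2.303 CPM in wt1 and 1.998 CPM in wt2. Their part in the falls was not tested.

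The levels of these genes in the other 5 lines of the study were not the same for every gene. In the METTL3 knockout line Cxcl1 had 31.4 and 20.2 CPM, Ccl2 79.5 and 58.3 CPM, C3 31.7 and 19.02 CPM, Mmp3 45.8 and 26.03 CPM and Lcn2 5.29 and 3.72 CPM. Across the 8 RBM45 knockout and rescue libraries Cxcl1 stood at 0.0641 to 0.755 CPM, Ccl2 at 0.0794 to 3.45 CPM, C3 at 0 to 0.168 CPM and Mmp3 at 0.4302 to 1.51 CPM, and Lcn2 at 0 in all 8. For these 5 genes both METTL3 knockout libraries were above wt2, and all 8 RBM45 knockout and rescue libraries were below it. Ccl7 followed that pattern too, with 20.3 and 16.9 CPM in the METTL3 knockout line against 11.6 CPM in wt2. Nfkbia did not, with 31.1 and 23.3 CPM in that line, on either side of wt2 at 25.3 CPM. Nor did Ier3, an early response gene given below, with 27.3 and 21.3 CPM there, below wt2 at 30.8 CPM. Antigen presentation and interferon genes followed the pattern only in part. In the METTL3 knockout line H2-K1 had 22.3 and 19.8 CPM, below wt2. Both METTL3 knockout libraries were above wt2 for H2-D1 (44.2 and 38.4 against 38.3 CPM), Zc3hav1 (18.6 and 18.5 against 12.6 CPM) and Nlrc5 (14.4 and 12.9 against 7.99 CPM). For Cxcl10 they had 1.80 and 1.16 CPM, on either side of wt2 at 1.298 CPM. H2-D1 had 51.5 and 37.7 CPM and Zc3hav1 14.3 and 15.3 CPM in 1 of the RBM45 knockout clones, near or above wt2, against 10.8 to 15.3 CPM and 9.06 to 11.9 CPM across the 6 libraries of the other RBM45 knockout clone and the rescue clones. No test across the lines was made, because each line is a single culture or clone.

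**Figure D2:**
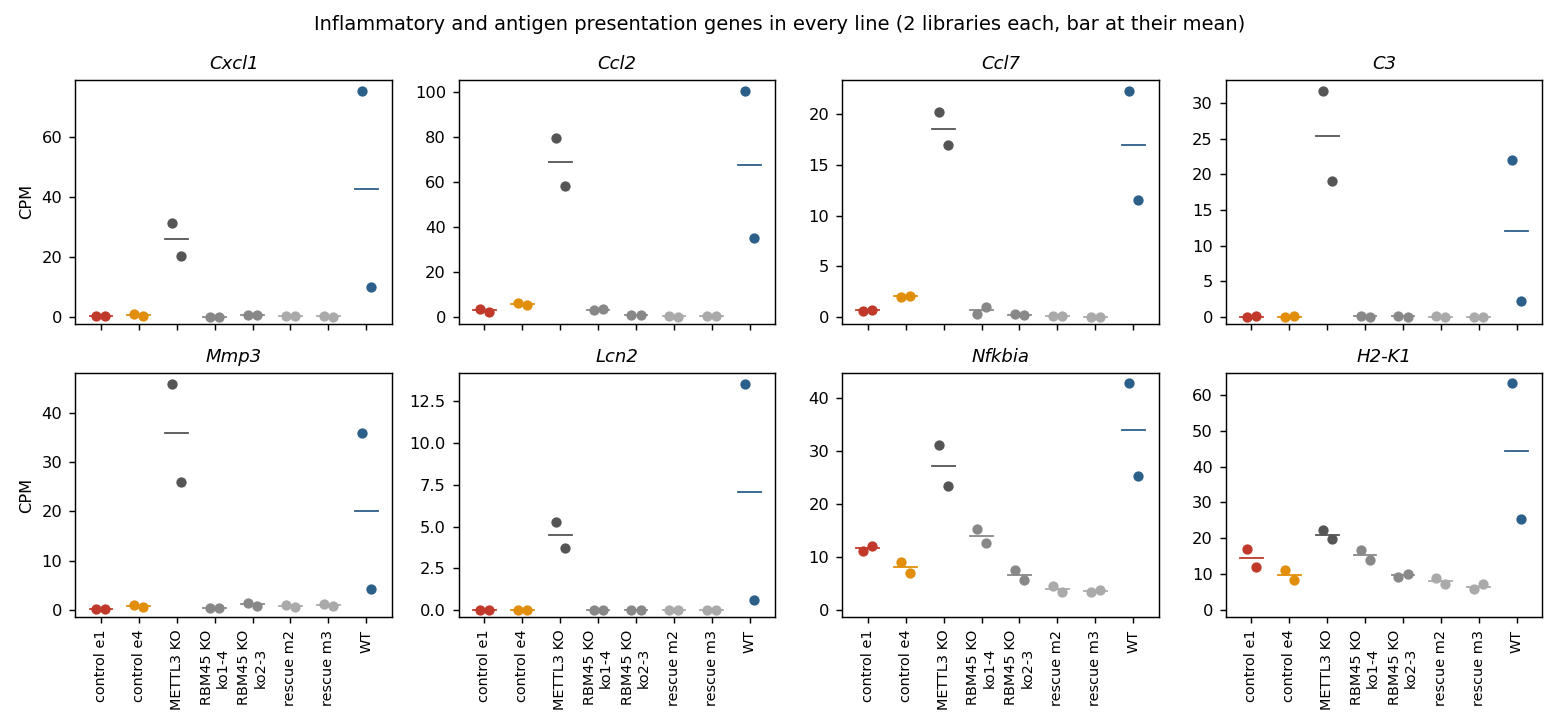
Levels in CPM (vertical axes, each from about 0) of 8 inflammatory and antigen presentation genes in the 8 lines, with the control clones at the left and WT at the right, 1 point per library and a bar at the mean of 2. The control clones lie near 0 for Cxcl1, C3 and Lcn2, while WT and the METTL3 knockout lie higher, with the 2 WT libraries far apart.

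The promoters of these genes are shown because NF-kappa B acts through a short sequence, the kappa B site. Sequences were taken from RefSeq (GRCm38.p6) and cover 250 bases before to 50 bases after the annotated start. The degenerate kappa B consensus of 10 letters was searched on both strands, and capitals mark its matches.
Cxcl1 promoter, GRCm38.p6 chr5:90890995-90891294, plus strand: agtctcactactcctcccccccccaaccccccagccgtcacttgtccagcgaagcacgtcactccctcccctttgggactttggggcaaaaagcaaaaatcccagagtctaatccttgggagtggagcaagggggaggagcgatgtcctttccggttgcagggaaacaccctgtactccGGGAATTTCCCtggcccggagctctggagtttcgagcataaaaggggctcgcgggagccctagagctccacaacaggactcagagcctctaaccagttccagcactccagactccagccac
Nfkbia promoter, GRCm38.p6 chr12:55492598-55492897, minus strand: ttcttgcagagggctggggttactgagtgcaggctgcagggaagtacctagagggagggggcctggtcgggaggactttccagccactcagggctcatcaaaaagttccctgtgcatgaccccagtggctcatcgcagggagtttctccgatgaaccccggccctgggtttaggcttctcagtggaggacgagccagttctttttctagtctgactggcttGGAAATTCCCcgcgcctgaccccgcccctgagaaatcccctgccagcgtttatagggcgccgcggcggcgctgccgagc
H2-K1 promoter, GRCm38.p6 chr17:34000298-34000597, minus strand: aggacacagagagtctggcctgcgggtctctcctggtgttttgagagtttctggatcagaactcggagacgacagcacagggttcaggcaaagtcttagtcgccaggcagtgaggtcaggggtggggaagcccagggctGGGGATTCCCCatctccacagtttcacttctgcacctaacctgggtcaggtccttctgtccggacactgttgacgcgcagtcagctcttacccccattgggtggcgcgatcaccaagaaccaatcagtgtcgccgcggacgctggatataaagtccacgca
Ier3 promoter, GRCm38.p6 chr17:35821463-35821762, plus strand: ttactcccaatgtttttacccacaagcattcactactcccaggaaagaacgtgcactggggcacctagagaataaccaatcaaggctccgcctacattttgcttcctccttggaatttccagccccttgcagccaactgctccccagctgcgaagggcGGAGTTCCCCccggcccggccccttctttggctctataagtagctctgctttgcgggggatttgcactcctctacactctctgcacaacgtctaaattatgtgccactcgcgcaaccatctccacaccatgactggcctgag
In Cxcl1 there were 2 overlapping matches, the first starting 71 bases before the start of transcription. Nfkbia had 1 match, starting 29 bases before, and Ier3, an early response gene given below, had 1, starting 92 bases before. In H2-K1 the capitals cover 2 overlapping matches, the first starting 111 bases before, and both read as the consensus on either strand. Of the 10 shared falls of the chemokine and antigen presentation lists, 7 had a promoter in the table and 6 of these held a match (Ccl20, Cxcl1, Csf1, Nfkbia, H2-K1 and H2-D1), while Lif did not. A match was found in 4.51% of all 32851 promoters of this length. By gene, it was found for 38 of 208 shared falls with a promoter in the table (18.3%), 5 of 112 shared rises (4.46%) and 603 of 9857 tested genes (6.12%). The chemokine list was drawn up to include NF-kappa B pathway genes, so matches among its members could be many whether or not they fell. The share among the other tested members of these lists was not counted. The listed falls with a match are also part of the 38. These are matches of letters only, no binding was measured, and the reason for the falls was not tested.

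The remaining named falls were not inflammatory genes. Prom1 (chromosome 5, 43993620 to 44102032, minus strand), a membrane glycoprotein used as a stem and progenitor marker, had 0.0623 and 0.104 CPM in e1 and 0 and 0.136 CPM in e4, against 6.62 CPM in wt1 and 6.39 CPM in wt2. With 5 counts over the 4 control libraries and 110 over WT it was 77.8-fold lower, with a 95% exact counting interval of 32.4 to 244. It was the only one of 7 tested progenitor markers to be a shared fall, and wt1 and wt2 had nearly the same level. Plcl2, a phospholipase C-like protein without catalytic activity, had 0.0623 and 0.209 CPM in e1 and 0.199 and 0.0679 CPM in e4, against 7.197 CPM in wt1 and 6.59 CPM in wt2. The log2 change of Plcl2 was -5.51 in e1 (SE 0.43, adjusted p 4.51e-07) and -5.71 in e4 (SE 0.48, adjusted p 1.26e-06) by edgeR. Fgf7, a growth factor made by mesenchymal cells, had 0.249 and 0.366 CPM in e1 and 0.0994 and 0.475 CPM in e4, against 6.19 CPM in wt1 and 5.69 CPM in wt2. The log2 change of Fgf7 was -4.21 in e1 (SE 0.48, adjusted p 1.62e-05) and -4.18 in e4 (SE 0.52, adjusted p 5.56e-05) by edgeR. For Prom1, Plcl2 and Fgf7 the WT libraries were within 1.09-fold of each other, and all 3 calls were kept without either WT library.

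Rspo3, a secreted enhancer of Wnt signalling, had 0.0623 and 0 CPM in e1 and 0.596 and 0.204 CPM in e4, against 8.06 CPM in wt1 and 3.696 CPM in wt2. Clone e1 held a single count, 193-fold lower, with a 95% exact counting interval of 33.8 to 7704. Bicc1, an RNA-binding protein, had 0.498 and 0.4701 CPM in e1 and 0.0994 and 0 CPM in e4, against 8.49 CPM in wt1 and 4.59 CPM in wt2, so that here e4 held the single count and was 153-fold lower, with a 95% exact counting interval of 26.95 to 6119. The 2 clones differed in Bicc1, with a difference of e1 minus e4 of 3.30 (edgeR adjusted p 0.0328), and did not pass that test in Rspo3. Zfp385b, a zinc-finger protein, had 0.498 and 0.522 CPM in e1 and 0.298 and 0.815 CPM in e4, against 9.21 CPM in wt1 and 4.49 CPM in wt2, a log2 change of -3.67 in e1 (SE 0.43, adjusted p 1.88e-05) and -3.44 in e4 (SE 0.45, adjusted p 0.000101) by edgeR. The calls of Rspo3, Bicc1 and Zfp385b were kept without either WT library. Without wt1 the log2 changes were -6.62 in e1 and -3.30 in e4 for Rspo3, -3.22 in e1 and -6.53 in e4 for Bicc1 and -3.11 in e1 and -2.88 in e4 for Zfp385b. Those of Rspo3 in e1 and Bicc1 in e4 are fitted on a single count. In the METTL3 knockout line Prom1 had 7.2005 and 4.39 CPM, Plcl2 7.76 and 9.51 CPM and Rspo3 24.6 and 18.3 CPM. Prom1, Fgf7, Rspo3, Bicc1 and Zfp385b overlap genes on the other strand, from which their reads cannot be told apart in a kit that does not mark strand.

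The 10 largest rises averaging at least 2 CPM and kept without either WT library are given next. St8sia2 (chromosome 7, 73939119 to 74013690, minus strand), an enzyme that adds polysialic acid to the neural cell adhesion molecule, had 28.4 and 29.1 CPM in e1 and 34.4 and 35.7 CPM in e4, against 2.73 CPM in wt1 and 5.89 CPM in wt2. Its log2 change was 2.67 in e1 (SE 0.25, adjusted p 1.89e-06) and 2.96 in e4 (SE 0.25, adjusted p 8.01e-07) by edgeR, the largest of these rises by the smaller of the 2 clones' changes, and 2.29 in e1 and 2.57 in e4 without wt1. Nav1, a protein that guides growing neurites along microtubules, had 89.04 and 91.03 CPM in e1 and 87.1 and 109 CPM in e4, against 25.6 CPM in wt1 and 42.3 CPM in wt2, a log2 change of 1.39 in e1 (SE 0.18, adjusted p 5.58e-05) and 1.52 in e4 (SE 0.18, adjusted p 3.62e-05) by edgeR and 1.09 in e1 and 1.21 in e4 without wt1. Tacr1, the receptor for substance P, had 26.9 and 26.6 CPM in e1 and 17.9 and 21.6 CPM in e4, against 9.21 CPM in wt1 and 7.09 CPM in wt2. Its log2 change was 1.73 in e1 (SE 0.19, adjusted p 8.79e-06) and 1.30 in e4 (SE 0.19, adjusted p 0.000304) by edgeR, but on exon bins alone the e4 change was 0.95 with an adjusted p of 0.0758. In each of these genes the lowest control library was above the higher WT library.

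Col6a3 (chromosome 1, 90765923 to 90843971, minus strand), a chain of collagen VI, had 45.9 and 76.3 CPM in e1 and 63.7 and 116 CPM in e4, against 5.76 CPM in wt1 and 20.7 CPM in wt2, a log2 change of 2.15 in e1 (SE 0.38, adjusted p 0.00108) and 2.71 in e4 (SE 0.38, adjusted p 0.000187) by edgeR. Replicate libraries of Col6a3 differed within every one of the 3 lines, and without wt1 the log2 changes were 1.56 in e1 and 2.13 in e4. Edil3, a secreted integrin ligand, had 17.3 and 21.05 CPM in e1 and 8.45 and 14.2 CPM in e4, against 3.74 CPM in wt1 and 3.296 CPM in wt2. Jam2, a junctional adhesion molecule, had 30.1 and 31.1 CPM in e1 and 29.4 and 28.5 CPM in e4, against 11.1 CPM in wt1 and 12.9 CPM in wt2. Jam2 levels were alike in the 4 control libraries, and its log2 changes were 1.34 in e1 and 1.26 in e4. Edil3 differed between the clones, with e1 minus e4 at 0.73 (edgeR adjusted p 0.0102).

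A further pair of rises differed between the clones in opposite ways. Klhl30, a member of the kelch-like family, had 13.2 and 12.2 CPM in e1 and 5.86 and 3.46 CPM in e4, against 1.44 CPM in wt1 and 1.298 CPM in wt2, and e1 minus e4 was 1.49 (edgeR adjusted p 0.000113). Lgr6, an R-spondin receptor and stem cell marker, had 48.97 and 47.3 CPM in e1 and 124 and 137 CPM in e4, against 11.8 CPM in wt1 and 25.9 CPM in wt2, and e1 minus e4 was -1.44 (edgeR adjusted p 5.42e-05). Klhl30 was thus highest in e1 and Lgr6 highest in e4, with WT lowest for both. Pid1, an adaptor that binds lipoprotein receptor tails, had 26.2 and 30.97 CPM in e1 and 18.6 and 30.96 CPM in e4, against 6.62 CPM in wt1 and 10.4 CPM in wt2, with log2 changes of 1.72 in e1 and 1.53 in e4. Ctsw, a cysteine protease known from cytotoxic lymphocytes, had 5.36 and 5.22 CPM in e1 and 4.97 and 5.57 CPM in e4, against 1.87 CPM in wt1 and 1.898 CPM in wt2, with log2 changes of 1.48 in e1 and 1.48 in e4 and nearly equal levels within each group. St8sia2, Pid1, Ctsw and Nav1 overlap genes on the other strand. Of the 10 named rises, Col6a3, Klhl30, Pid1, Nav1 and Lgr6 lie on chromosome 1, which is taken up below. All 20 genes of these lists of named rises and falls remained shared changes under each alternative with a call per clone, except Tacr1 on exon bins.

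**Figure D3:**
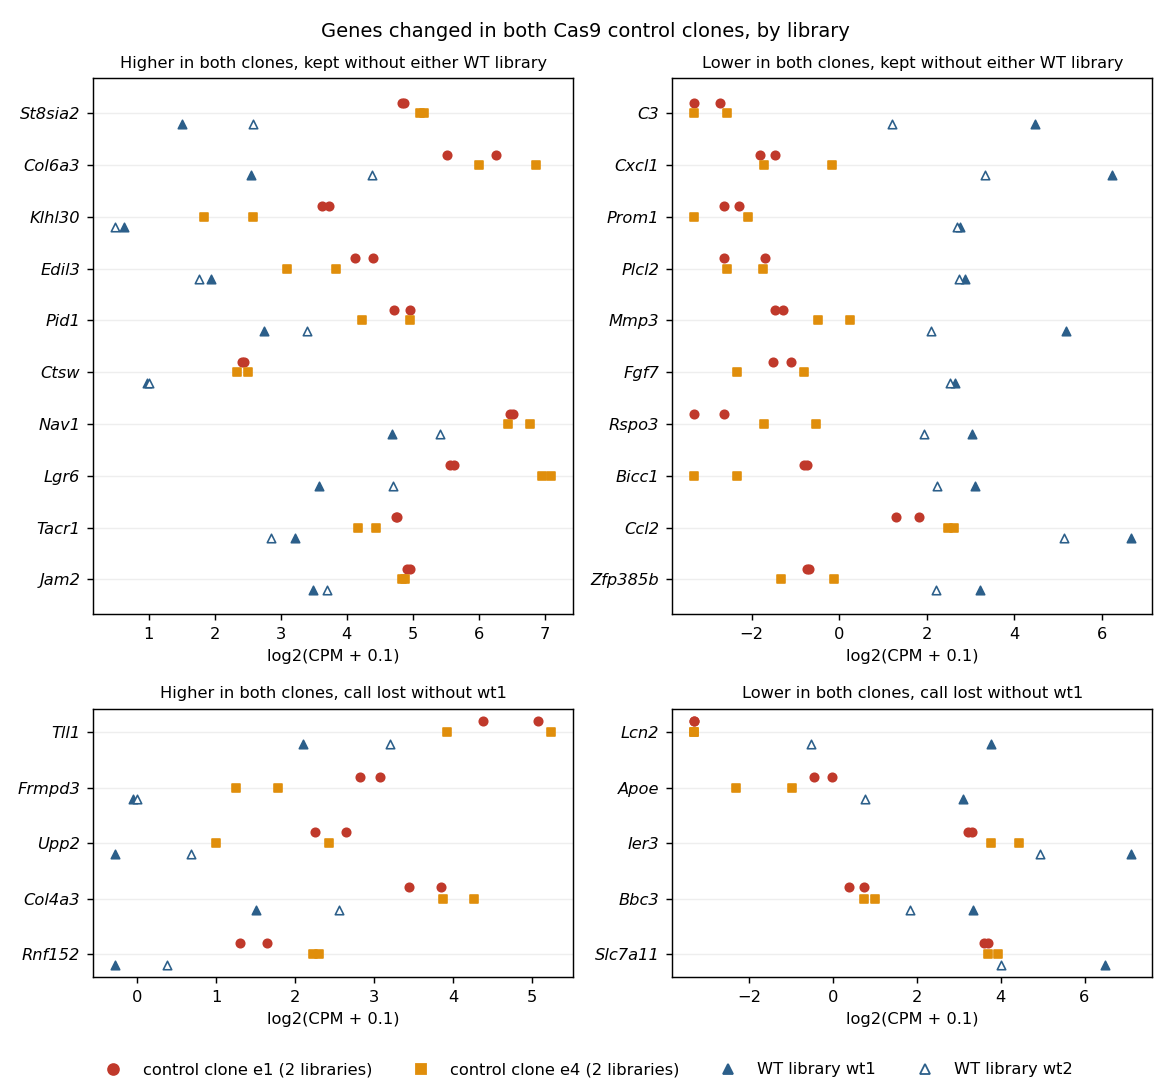
Levels of the named genes as log2(CPM + 0.1) (horizontal axes) in the 2 libraries of clone e1 (circles), the 2 of clone e4 (squares) and the WT libraries wt1 (filled triangles) and wt2 (open triangles). In the upper panels the control libraries clear both WT libraries, and in the lower panels, where the call was lost without wt1, wt2 mostly lies between wt1 and the controls.

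Among the changes that depended on wt1 alone, the 5 largest named falls all had wt1 far above wt2. Ier3 (chromosome 17, 35821684 to 35822923, plus strand), an early response gene that modulates survival signalling, had 9.91 and 9.24 CPM in e1 and 21.6 and 13.6 CPM in e4, against 137 CPM in wt1 and 30.8 CPM in wt2. Its log2 change was -3.11 in e1 (SE 0.43, adjusted p 0.000128) and -2.25 in e4 (SE 0.42, adjusted p 0.0021005) by edgeR and -1.68 in e1 (adjusted p 0.000161) and -0.83 in e4 (adjusted p 0.0545) without wt1. Slc7a11, the cystine transporter subunit that is induced by oxidative and amino acid stress, had 12.8 and 12.1 CPM in e1 and 15.2 and 12.9 CPM in e4, against 89.4 CPM in wt1 and 15.98 CPM in wt2, and its log2 change moved to -0.36 in e1 and -0.19 in e4 without wt1, so wt2 was close to the clones. Apoe, a lipid carrier, had 0.623 and 0.888 CPM in e1 and 0.0994 and 0.407 CPM in e4, against 8.49 CPM in wt1 and 1.598 CPM in wt2. Bbc3, the p53 target known as Puma, had 1.56 and 1.201 CPM in e1 and 1.89 and 1.56 CPM in e4, against 9.93 CPM in wt1 and 3.496 CPM in wt2. Without wt1 these changes were -1.06 in e1 and -2.48 in e4 for Apoe and -1.35 in e1 and -1.03 in e4 for Bbc3. Lcn2, the fifth, is given above.

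The 5 named rises of this kind were smaller and less uniform. Tll1, a metalloprotease that processes collagen precursors, had 20.8 and 33.7 CPM in e1 and 15.1 and 37.9 CPM in e4, against 4.17 CPM in wt1 and 9.09 CPM in wt2, and without wt1 the log2 change was 1.59 in e1 (adjusted p 0.0496) and 1.57 in e4 (adjusted p 0.0676) by edgeR. Frmpd3, a scaffold protein with FERM and PDZ domains, had 6.98 and 8.304 CPM in e1 and 2.29 and 3.33 CPM in e4, against 0.864 CPM in wt1 and 0.899 CPM in wt2. Its WT libraries were nearly equal, and without wt1 the log2 change was 3.08 in e1 (adjusted p 0.000183) and 1.66 in e4 (adjusted p 0.0691) by edgeR, so the size of the change did not depend on wt1 although the call did. Upp2, a uridine phosphorylase, had 4.67 and 6.16 CPM in e1 and 1.89 and 5.297 CPM in e4, against 0.7197 CPM in wt1 and 1.498 CPM in wt2. Col4a3, a chain of basement membrane collagen, had 10.8 and 14.3 CPM in e1 and 14.6 and 19.2 CPM in e4, against 2.73 CPM in wt1 and 5.79 CPM in wt2. Rnf152, a ubiquitin ligase, had 2.37 and 3.03 CPM in e1 and 4.57 and 4.82 CPM in e4, against 0.7197 CPM in wt1 and 1.199 CPM in wt2. Without wt1 their log2 changes were 1.86 in e1 and 1.33 in e4 for Upp2, 1.12 in e1 and 1.56 in e4 for Col4a3 and 1.17 in e1 and 1.97 in e4 for Rnf152.

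The shared falls of the stress-responsive lists all depended on wt1 alone. Of 21 immediate-early and ERK feedback genes, all tested, 1 was higher and 8 lower in e1 (5.57% and 6.61% of all tested genes). In e4 none was higher and 6 were lower (4.33% and 6.74% of all tested genes). There were 4 shared falls (Ier3, Dusp1, Nr4a1 and Myc) in this list, where 1.88% of all tested genes were shared falls. The list median was -0.73 in e1 and -0.71 in e4, and -0.12 in e1 and -0.073 in e4 without wt1. Dusp1, a phosphatase that switches off MAP kinases, had 9.16 and 7.16 CPM in e1 and 18.8 and 15.3 CPM in e4, against 37.4 CPM in wt1 and 19.98 CPM in wt2. Myc, a growth-promoting transcription factor, had 59.005 and 55.4 CPM in e1 and 62.4 and 56.7 CPM in e4, against 122 CPM in wt1 and 64.3 CPM in wt2. Nr4a1, an orphan nuclear receptor, had 12.8 and 10.3 CPM in e1 and 12.2 and 9.85 CPM in e4, against 33.1 CPM in wt1 and 12.1 CPM in wt2. Without wt1 the log2 changes were -1.30 in e1 and -0.24 in e4 for Dusp1, -0.17 in e1 and -0.11 in e4 for Myc and -0.072 in e1 and -0.14 in e4 for Nr4a1. Of 15 listed genes of the integrated stress and unfolded protein responses, 12 were tested and none was shared. The 2 with the smallest p were Dnajb9, an endoplasmic reticulum chaperone partner with log2 changes of -0.57 in e1 and -0.95 in e4, and Chac1, a glutathione-degrading stress gene with 6.04 and 5.797 CPM in e1 and 13.3 and 5.43 CPM in e4, against 34.7 CPM in wt1 and 5.29 CPM in wt2. Among hypoxia and glycolysis genes, 17 of 20 were tested and Ndrg1, a hypoxia-induced gene with 25.7 and 22.9 CPM in e1 and 45.1 and 25.4 CPM in e4, against 130.3 CPM in wt1 and 42.7 CPM in wt2, was the 1 shared fall. Its log2 change without wt1 was -0.82 in e1 and -0.29 in e4. Bbc3 was the 1 shared fall among 23 tested p53 targets of 24 listed, of which 8 were lower in e1 and 3 in e4, while 1 was higher in e4.

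Axon guidance genes had 5 shared falls among 33 tested of 40 listed, and no shared rise, where 1.88% of all tested genes were shared falls and 0.992% shared rises. Sema3c, a secreted semaphorin, had 8.22 and 6.37 CPM in e1 and 5.96 and 5.23 CPM in e4, against 24.6 CPM in wt1 and 18.9 CPM in wt2, a log2 change of -1.57 in e1 (SE 0.20, adjusted p 4.55e-05) and -1.96 in e4 (SE 0.21, adjusted p 1.61e-05) by edgeR that was kept without either WT library. Without wt1 the Sema3c change was -1.38 in e1 and -1.76 in e4. Robo1, a receptor for Slit repellents, had 0 and 0.104 CPM in e1 and 0.0994 and 0.0679 CPM in e4, against 4.32 CPM in wt1 and 1.798 CPM in wt2, with 4 counts over the 4 control libraries and 48 over WT, 42.4-fold lower, with a 95% exact counting interval of 15.5 to 162. This call too was kept without either WT library. The fitted log2 change of Robo1 was -5.48 in e1 and -5.03 in e4 with both WT libraries and -4.78 in e1 and -4.33 in e4 without wt1. DESeq2 gave Robo1 no adjusted p in e4. Ntn1, the guidance cue netrin-1, had 91.97 and 86.7 CPM in e1 and 63.3 and 49.2 CPM in e4, against 169 CPM in wt1 and 121 CPM in wt2. Epha7, an ephrin receptor, had 0 counts in the control libraries and 8 in WT. Those 2 calls and that of Sema6d depended on wt1 alone. The list did not move one way in e1, where 8 genes were higher and 8 lower with a median of 0.13 (5.57% of all tested genes were higher in e1 and 6.61% lower), while in e4 3 were higher and 11 lower with a median of -0.33 (4.33% of all tested genes were higher in e4 and 6.74% lower).

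Each cell type marker list had at most 19 tested genes and at most 2 shared changes. Over all tested genes 0.992% were shared rises and 1.88% shared falls, and in lists this short a single call already lies above those shares. Among neuronal markers, 7 of 17 were tested and the dendritic microtubule gene Map2 was a shared rise that depended on wt1 alone, with 113 and 126 CPM in e1 and 92.8 and 138 CPM in e4, against 39.7 CPM in wt1 and 66.4 CPM in wt2. Among oligodendrocyte lineage markers, 4 of 10 were tested and Cspg4, the NG2 proteoglycan of progenitors and pericytes, was a shared rise kept without either WT library, with 88.3 and 89.5 CPM in e1 and 95.02 and 108 CPM in e4, against 40.4 CPM in wt1 and 49.2 CPM in wt2. The defining markers Olig2, Sox10 and Mag were at or near 0 beside it. Shared falls were P2ry12, a purine receptor of microglia among 4 tested of 10 listed that stood at or under 0.699 CPM in every library, Kdr among 3 tested endothelial markers, and 2 of 19 tested mesenchymal and matrix genes, Ccn1 and Cdh11. Kdr, a receptor for vascular endothelial growth factor, had 0.249 and 0.104 CPM in e1 and 0.497 and 0.543 CPM in e4, against 3.02 CPM in wt1 and 1.398 CPM in wt2. Ccn1, a matricellular protein, had 188 and 142 CPM in e1 and 166 and 155 CPM in e4, against 235 CPM in wt1 and 222 CPM in wt2. Cdh11, a mesenchymal cadherin, had 5.67 and 5.07 CPM in e1 and 0.398 and 0.815 CPM in e4, against 13.4 CPM in wt1 and 8.99 CPM in wt2, and its e1 minus e4 difference was 3.04 (edgeR adjusted p 3.85e-06). The calls of Kdr and Cdh11 depended on wt1 alone, and those of P2ry12 and Ccn1 were lost without wt1 and lost without wt2. Without wt1 the log2 changes were -2.96 in e1 and -1.40 in e4 for Kdr and -0.75 in e1 and -3.79 in e4 for Cdh11. No astrocyte marker was a shared change, and the 2 with the smallest p were the glutamate transporters Slc1a3, with 2.37 and 1.51 CPM in e1 and 16.002 and 24.5 CPM in e4, against 7.34 CPM in wt1 and 13.3 CPM in wt2, and Slc1a2, at or under 0.864 CPM. Slc1a3 passed the test in both clones in opposite directions, with log2 changes of -2.45 in e1 and 0.95 in e4.

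Other lists had 1 or 2 shared falls and no shared rise, where 1.88% of all tested genes were shared falls. The first was Grin2a, an NMDA receptor subunit, among 13 tested synapse and channel genes, with 1.25 and 0.731 CPM in e1 and 0.199 and 0.136 CPM in e4, against 5.04 CPM in wt1 and 1.298 CPM in wt2. Igf2bp2, an RNA-binding m6A reader among 17 tested genes of the m6A machinery, had 13.3 and 14.3 CPM in e1 and 16.5 and 15.5 CPM in e4, against 29.8 CPM in wt1 and 23.2 CPM in wt2. Among 11 tested imprinted genes of 25 listed there was Peg3, a paternally expressed zinc-finger gene with 0 counts in the control libraries and 7 in WT. Among 62 tested ribosomal protein genes of 66 there were Rps15a, with log2 changes of -0.47 in e1 and -0.66 in e4, and Rpl9, with -0.70 in e1 and -0.48 in e4. All but the Rpl9 call depended on wt1 alone, and the Rpl9 call was lost without wt1 and lost without wt2.

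Several further lists held no shared change. Over all tested genes 2.87% were shared changes, and in lists of this size a count of 0 is close to that share. None was found among 27 tested S phase genes, 19 tested G2/M genes, 16 tested DNA repair genes, 21 tested cholesterol synthesis genes, 7 tested structural RNAs, 58 tested replication-dependent histone genes or the 2 tested clustered protocadherins of 20 listed. The members with the smallest p, none of them a shared change, had mean log2 changes over both clones of 0.57 for the polymerase subunit Pola1 and 0.36 for the helicase subunit Mcm6, 0.58 for the spindle protein Nusap1 and 0.73 for the kinetochore protein Cenpf, and 0.43 for Xrcc5 and 0.40 for Prkdc, both of DNA end joining. For the cholesterol enzyme Hsd17b7 the change was 0.69, for the structural RNAs the changes were -0.64 for Scarna2 and -0.53 for Rn7sk, and for the histones -0.36 for Hist1h1a and 0.87 for Hist1h2ao. The 2 tested protocadherins, Pcdhb16 and Pcdhb17, stayed at or under 0.795 CPM in all 6 libraries.

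The shared rises were not spread evenly over the genome. Chromosome 1 held 71 of the 161 shared rises (44.1%) and 1078 of the 16223 tested genes (6.64%). Tested genes of chromosome 1 had a median log2 change of 0.50 in e1 and 0.21 in e4, and 80.4% of them were above 0 in e1 and 70.9% in e4. Without wt1 the medians were 0.46 in e1 and 0.18 in e4. The shift ran along the whole chromosome: in 13 windows of 15 Mb with at least 10 genes averaging 5 CPM or more, window medians lay between 0.38 and 0.67 in e1 and between 0.15 and 0.35 in e4. Of the 71 rises, 13 were kept without either WT library.

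Shared falls were most numerous on chromosomes 5 and 7. Chromosome 5 held 51 of the 305 shared falls (16.7%) and 6.71% of tested genes, with medians of -0.17 in e1 and -0.22 in e4. On chromosome 7, which held 38 shared falls (12.5%) and 7.48% of tested genes, the median was 0.018 in e1 and -0.50 in e4, and window medians in e4 lay between -0.61 and -0.41. A shared fall on chromosome 7 thus lay on a background that was low in e4 and level in e1. Chromosome 15 differed between the clones too, with medians of -0.22 in e1 and 0.24 in e4. No DNA data were used here, so gene copy number and other reasons for a shift along a chromosome cannot be told apart.

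**Figure D4:**
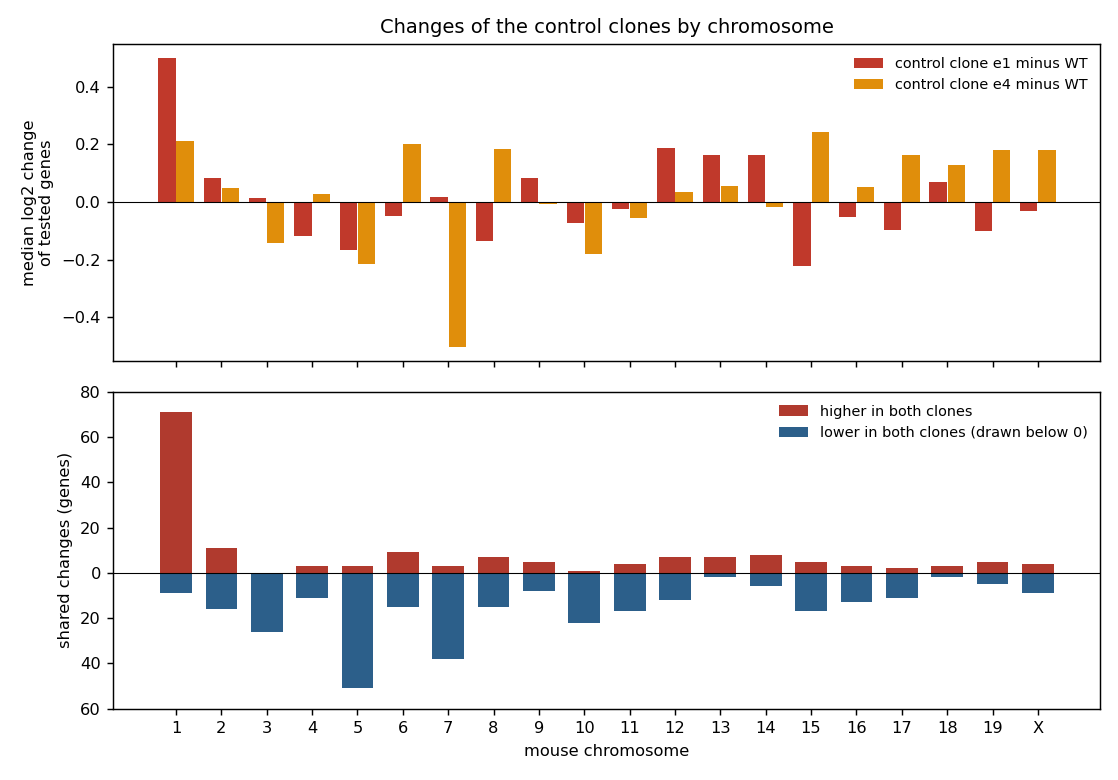
Upper panel, median log2 change of the tested genes of each chromosome (horizontal axis) in clone e1 and clone e4 over WT. Lower panel, number of shared changes per chromosome, rises above 0 and falls below, with 71 rises on chromosome 1, 51 falls on chromosome 5 and 38 on chromosome 7.

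Per library, the shift was present in both replicates. For the 615 genes of chromosome 1 averaging at least 5 CPM, the median deviation from the mean of all 16 libraries, relative to all chromosomes, was 0.31 and 0.35 in the libraries of e1, 0.034 and 0.090 in those of e4, -0.18 in wt1 and -0.091 in wt2. For 646 genes of chromosome 7 it was 0.063 and 0.024 in e1, -0.43 and -0.52 in e4, 0.095 in wt1 and 0.010 in wt2. The e1 libraries on chromosome 1 and the e4 libraries on chromosome 7 lay farther from both WT libraries than these lay from each other. On chromosome 1 the e4 libraries also lay above both WT libraries, but by less. There the margin of e4-1 (0.034) over wt2 (-0.091) was not much wider than the gap between wt2 and wt1 (-0.18).

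Of 6 tested genes of the Y chromosome, 4 changed in opposite directions in the clones, and none was a shared change. Kdm5d, a histone demethylase, had 13.7 and 15.3 CPM in e1 and 0 and 0 CPM in e4, against 6.48 CPM in wt1 and 6.89 CPM in wt2. Eif2s3y, a translation initiation factor subunit, had 12.7 and 17.3 CPM in e1 and 0 and 0 CPM in e4, against 6.19 CPM in wt1 and 5.19 CPM in wt2. Uty, a relative of the demethylase Utx, had 35.8 and 52.3 CPM in e1 and 0 and 0.272 CPM in e4, against 25.9 CPM in wt1 and 18.98 CPM in wt2. Ddx3y, an RNA helicase, had 24.2 and 27.99 CPM in e1 and 0.0994 and 0.272 CPM in e4, against 11.2 CPM in wt1 and 11.2 CPM in wt2. Every e1 library was above both WT libraries for all 4 genes, and every e4 library was at or near 0. Relative to WT the mean level in e1 was 2.17-fold for Kdm5d, 2.64-fold for Eif2s3y, 1.96-fold for Uty and 2.33-fold for Ddx3y. In e4, with 0 counts over both libraries and a floor of 3 counts, Kdm5d was at least 55.5-fold lower and Eif2s3y at least 46.3-fold lower than WT. By edgeR the e1 rise of Kdm5d was 1.11 (SE 0.15, adjusted p 0.000146), and the test of e1 against e4 gave an adjusted p of 1.04e-10. The METTL3 knockout libraries had 4.5003 and 5.303 CPM of Kdm5d, near WT, and the 8 RBM45 knockout and rescue libraries 13.6 to 17.8 CPM, near e1. The other 2 passed the test in neither clone. Gm47283 had 71.5 and 109 CPM in e1 and 40.1 and 64.3 CPM in e4, against 80.03 CPM in wt1 and 63.3 CPM in wt2, so that the libraries of e4 were not near 0, and Mid1-ps1 stood at or under 1.199 CPM in all 6 libraries. These 2 lie far along the chromosome from the 4 above. They start at bases 90784738 and 90753057, while the 4 lie between bases 897788 and 1286629.

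**Figure D5:**
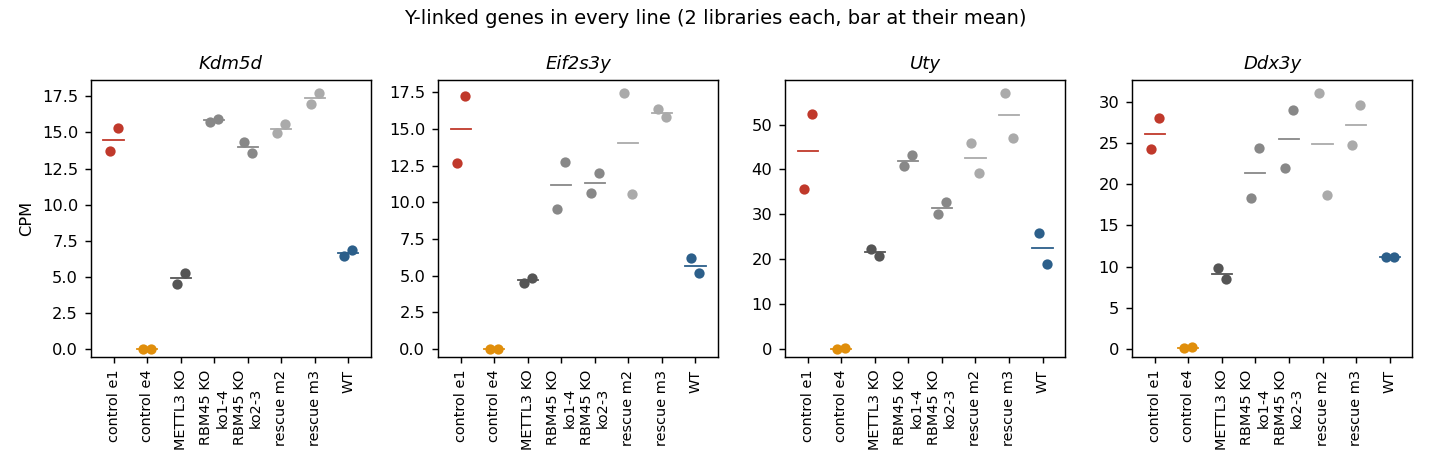
Levels in CPM (vertical axes) of 4 Y-linked genes in the 8 lines, with the control clones at the left and WT at the right, 1 point per library and a bar at the mean of 2. Clone e1 lies above WT and clone e4 at or near 0 for every gene.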

How the data were processed

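Ribodepleted total RNA was sequenced with a non-directional kit, per the labels' protocols. Of the tools in the submitters' processing notes, HISAT2 2.1.0, featureCounts 1.6.5 and DESeq2 1.32.0 bear on gene counts, with the build mm10. The deposited gene and exon tables hold raw counts of fragments from featureCounts 1.6.3 (per the file headers) on a flattened Ensembl 98 annotation (GRCm38). Gene rows span introns as well as exons, while exon rows are bins. Per the file headers, at least 0.1 of a fragment had to lie in a feature, multi-mapping fragments were dropped, and the strand setting was 1, so fragments on a feature's opposite strand went uncounted. With a non-directional kit, reads of genes that overlap on opposite strands cannot be told apart, which concerns 16474 rows. In 1397 rows overlapping genes are joined, and these rows were not named. Symbols came from GENCODE M21 (53174 of 53333 rows). The deposited intron table and the summary of read fates were used only for the library checks, and all per-sample columns were used.

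The columns of clones e1 and e4 match no sample label by name, and were taken as the Cas9 controls because every other column matched another group. Which one is isolate 1 in the labels is not settled.

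Counts of all 16 libraries in 8 lines of 2 (8 residual degrees of freedom) were fitted with edgeR 4.0.16 in R 4.3.3 (TMM, filterByExpr, quasi-likelihood test, Benjamini-Hochberg adjustment over 16223 genes, threshold 0.05), after a check on simulated counts. Shared changes were refitted without wt1 and without wt2. Alternatives were RLE scaling, DESeq2 1.42.0, no filter, the 6 libraries alone, scaling without the 12 most abundant genes, exon bins, replicate numbers as a block, each control library left out, and lines as units. Intervals on count ratios are exact binomial (95%), and like the floor of 3 counts they cover counting error only. Summaries and figures used pandas 2.3.3, scipy 1.17.1 and matplotlib 3.10.9 under Python 3.11.15.

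The members and gene lists were chosen with earlier results of these data known. Named genes are the 10 largest rises and falls, by the smaller of the 2 clones' changes, among shared changes averaging at least 2 CPM, with all control libraries on one side of both WT libraries and the call kept without either WT library. Added to these are the 5 largest rises and falls that depended on wt1 alone (side against wt1 only), up to 4 shared members of each list with the smallest p (2 members where a list had none), and Rbm45 and Mettl3. A gene that this rule names is not reported here. Predicted genes, Rik clones, pseudogenes and joined rows were left out of the ranked names. Ccl20, Csf1, Lif, Sema6d, Eif2s3y, Ddx3y, single marker genes and the promoters printed were chosen after their values were seen.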

Additional observations from a re-analysis of the deposited data

Results flagged for a closer look

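Among 83 groups of 4 control values examined, 4 held a library far from the other 3, and chance alone would give about 1 in 20. In each case the library was e4-1, the shallowest of the 4 control libraries with 12464922 counts. The gap between it and the nearest library was 0.878 of the range of the 4 for Cxcl1, 0.922 for Chac1, 0.876 for Ndrg1 and 0.955 for Rpl9. Chac1 had 13.3 CPM in e4-1 against 5.43 CPM in e4-2. The part of depth in these values was not tested.

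For 19 of the 78 named genes the clones themselves differed by edgeR's test of e1 minus e4 (adjusted p under 0.05), so that their changes over WT were unequal. Higher in e1 were Klhl30 (log2 difference 1.49), Edil3 (0.73), Bicc1 (3.30), Frmpd3 (1.42), Cdh11 (3.04), Xrcc5 (0.69), Hsd17b7 (1.02), Ntn1 (0.67) and Grin2a (2.52). Cxcl10, at 0 counts in e4, had a fitted difference of 6.06 that depends on the prior count. Lower in e1 were Lgr6 (-1.44), Slc1a3 (-3.41), Zc3hav1 (-0.80), Nlrc5 (-0.66), Dusp1 (-1.06), Ccl7 (-1.61) and Hist1h1a (-0.71). The Y-linked genes Kdm5d (10.57) and Uty (8.02) had fitted differences that likewise rest on levels near 0 in e4. Xrcc5, Hsd17b7, Klhl30 and Lgr6 lie on chromosome 1, where the clones' medians differed as given above.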

How the results depend on the processing

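The 20 genes named as largest kept rises and falls remained shared changes under every setting with a call per clone, except Tacr1 on exon bins. Of the 27 named changes kept without either WT library, DESeq2 lost 0 and gave 1, Robo1, no adjusted p in e4. Of the 29 other named shared changes, DESeq2 lost 6 (Rnf152, Lcn2, P2ry12, Kdr, Nlrc5 and Ndrg1), exon bins 9, no filter 4, scaling without abundant genes 3, and the 6 libraries alone 23, with 4 more missing from that fit. RLE scaling gave 161 shared rises and 314 falls, scaling without abundant genes 180 rises and 273 falls, and exon bins alone 124 rises and 255 falls. DESeq2 kept 75 changes without either WT library, where edgeR kept 114. With no filter on low counts there were 700 shared changes, 445 of them depending on wt1 alone, and chromosome 1 medians of 0.545 in e1 and 0.236 in e4. Scaling without abundant genes moved these medians to 0.548 in e1 and 0.239 in e4. The 6 libraries alone, with 3 residual degrees of freedom, gave 653 calls for e1, 532 for e4, 422 for their mean and 130 shared, of which 31 were kept and 61 depended on wt1 alone. With lines as units there were 0 calls for the mean, and the mean log2 changes of Slc1a3 (0.090), Kdm5d (0.14) and Uty (0.055), genes that moved opposite ways in the clones, turned positive. Leaving out 1 library at a time gave 805 to 2428 calls for e1, 629 to 2214 for e4, 433 to 2131 for the mean, 143 to 926 shared, 83 to 171 kept and 125 to 335 depending on wt1 alone, with chromosome 1 medians of 0.45 to 0.55 in e1 and 0.16 to 0.27 in e4. Over the same left-out libraries the mean log2 change ran from -2.25 to 0.46 for Chac1 and from -0.33 to 0.073 for Mettl3, positive only without wt1. Whether fewer samples or the libraries themselves moved these counts was not tested.

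Replicate numbers are shared by the lines, but no label says that a number marks a shared culture, day or batch, and with 2 libraries in each line the data do not settle whether the numbers pair them. Deviations from line means correlated across genes with r of 0.15 between e1 and WT, 0.20 between e4 and WT and 0.36 between e1 and e4. With the number as a replicate block there were 2315 calls for e1, 2018 for e4, 564 shared and 122 kept. Low depth of WT (2580543 counts in wt1 outside the abundant genes) limits what can be said of genes near 0.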
